A study of Mus musculus with 2 samples.

Results

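A set of 8 genes treated as long noncoding RNAs (lncRNAs) was followed in embryonic mouse retina across sorted cells and cell groups: *Miat*, *Rmst*, *Sox2ot*, *Six3os1*, *Snhg11*, *Malat1*, *Neat1* and *RP24-402O2.2*. They were picked by symbol, and they were selected on their levels in these same libraries, so every level below is a description and none was tested. Of the 8 symbols, 6 had a row among the 28692 genes of each count matrix, and *Sox2ot* and *Six3os1* were not analysed here. Cells came from LHX4::GFP mice (Tg(Lhx4::EGFP)KN199Gsat/Mmucd) at E14.5, which carry a bacterial artificial chromosome that places EGFP under *Lhx4* regulatory sequence. Both groups therefore carried the same transgene and differed by the sort gate: GFP+ cells, labelled cone photoreceptors, and GFP- cells, labelled retinal cells. Retinas of 2 litters were pooled into one suspension and each gate gave 1 droplet library read from the 3′ ends of transcripts, without replicates. Gate and library coincide, so their parts in a difference cannot be told apart. Transcripts were counted as unique molecular identifiers (UMIs), which count PCR copies of 1 molecule once.

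LncRNAs are transcripts that are processed like messenger RNAs but are not known to act through a protein. *Malat1* and *Neat1* stay in the nucleus, the first in nuclear speckles, where splicing factors are stored, and the second as the scaffold of paraspeckles. *Miat*, also called Gomafu, is a nuclear RNA of nervous tissue that binds splicing factors through repeats of a branch-point-like sequence, and it is known in the developing retina as RNCR2. *Rmst* is known as a transcript of neural progenitors that works with SOX2, and *Snhg11* is a host gene of small nucleolar RNAs found in neurons. *RP24-402O2.2* is a clone-based name with no known role.

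The repeats through which *Miat* binds splicing factors are shown first. The longest GENCODE M21 transcript (Miat-205, 9163 bases) held 11 copies of ACTAAC on the transcribed strand, of which 6 read TACTAAC. Among 10704 lncRNA genes only 3 others had as many copies or more in their longest transcript, and the median was 0. The density was 1.2 copies per kilobase in *Miat* against 0.138 over all lncRNA transcripts together. *Neat1* had 4 copies, *Snhg11* had 1, and *Malat1*, *Rmst* and *RP24-402O2.2* had 0. The 2 stretches with the most copies, 4 each in capitals, lie within single exons on chromosome 5 (GRCm38, minus strand). Their positions are chr5:112217307-112217461 and chr5:112216750-112216879.
Miat repeats, bases 4930 to 5084: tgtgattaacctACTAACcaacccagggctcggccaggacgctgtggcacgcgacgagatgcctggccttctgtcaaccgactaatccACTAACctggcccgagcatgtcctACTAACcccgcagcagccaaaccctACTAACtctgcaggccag
Miat repeats, bases 5512 to 5641: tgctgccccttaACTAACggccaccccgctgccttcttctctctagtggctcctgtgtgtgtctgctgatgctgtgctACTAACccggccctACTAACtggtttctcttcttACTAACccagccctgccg

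The kit copies RNA from a run of A bases, so a lncRNA with a poly(A) tail is counted through its 3′ end. The annotated ends differed. The last 100 bases of the longest GENCODE M21 transcript are given below, with the polyadenylation signals AATAAA and ATTAAA in capitals. Whether the counted molecules ended there was not tested, and other transcripts of a gene can end elsewhere. The *Rmst* gene, for one, reaches beyond the end shown, to base 92071037. *Malat1*, *Miat*, *Rmst* and *RP24-402O2.2* each had a signal 19 to 23 bases from the end, as did *Snhg11*, whose sequence is left out. *Neat1* had neither. Its longest transcript, and most of the mature *Malat1* RNA, are known to end in a triple helix without a poly(A) tail. From which run of A bases the counted *Malat1* and *Neat1* molecules were copied was not tested. Of 10694 lncRNA genes, 46.1% held at least 1 of these signals in this window. The ends lie at chr19:5795690-5795789 (*Malat1*), chr5:112213228-112213327 (*Miat*), chr10:92081746-92081845 (*Rmst*), chr11:88256891-88256990 (*RP24-402O2.2*) and chr19:5824708-5824807 (*Neat1*), on GRCm38.
Malat1: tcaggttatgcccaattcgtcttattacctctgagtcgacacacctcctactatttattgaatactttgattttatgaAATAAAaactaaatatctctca
Miat: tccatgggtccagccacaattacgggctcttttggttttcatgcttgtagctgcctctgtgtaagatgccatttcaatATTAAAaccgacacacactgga
Rmst: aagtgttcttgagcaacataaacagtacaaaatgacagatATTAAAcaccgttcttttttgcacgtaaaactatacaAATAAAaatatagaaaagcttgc
RP24-402O2.2: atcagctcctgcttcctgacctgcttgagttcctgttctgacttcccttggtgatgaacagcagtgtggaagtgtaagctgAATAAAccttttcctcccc
Neat1: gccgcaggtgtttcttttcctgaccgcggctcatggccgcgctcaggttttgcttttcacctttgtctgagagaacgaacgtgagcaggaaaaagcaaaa

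Of the 6 genes, 5 are annotated as long intergenic noncoding RNAs, whereas *Snhg11* (chromosome 2, 158375638 to 158386145, plus strand) is typed protein coding in GENCODE M21. *Malat1* (chromosome 19, 5795690 to 5802672) and *Neat1* (chromosome 19, 5824708 to 5845478) are neighbours, each with a longest transcript of 1 exon on the minus strand. *Miat* (chromosome 5, 112213228 to 112229395, minus strand) and *Rmst* (chromosome 10, 92071037 to 92165170, minus strand) are overlapped on the other strand by *Gm26953* and *Gm26700*. *Malat1* is overlapped on the other strand by *Gm37376*, whose level is not given here. Whether counting used strand is not given in the sources used here. *Gm26953* had 3 UMIs in the GFP- library and 0 in the GFP+ library. *Gm26700* had 22 UMIs in the GFP+ and 65 in the GFP- library. *RP24-402O2.2* carries the same Ensembl identifier as *Gm38534* (chromosome 11, 88253368 to 88256990, plus strand). *Rmst* has another identifier in the files (ENSMUSG00000097348) than in GENCODE M21, so its position rests on the symbol alone.

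The GFP+ library held 16010591 UMIs in 3728 cells (median 3906.5 UMIs per cell) and the GFP- library 46774961 UMIs in 4444 cells (median 9937.5). The mitochondrial share was alike, at medians of 2.48% and 2.33%, and 20 cell barcodes occurred in both libraries. Cell groups were set by raw UMIs of marker genes, in each library apart. The cone rule (at least 4 UMIs over *Gngt2*, *Gnb3*, *Thrb*, *Rxrg* and *Pdc*) took 3604 GFP+ cells (96.7%) and 62 GFP- cells. All 8 cone markers, those of the rule among them, had UMIs in the sum of GFP+ cones, but also in that of GFP- progenitors. The other GFP- groups were progenitors (2332 cells), *Olig2* neurogenic cells (228), *Atoh7* neurogenic cells (346), ganglion precursors with *Pou4f2* (175), ganglion cells (775) and amacrine or horizontal cells (306). Another 152 GFP- cells met 2 or more of the cone, ganglion and amacrine or horizontal rules, 134 of them the last pair, and were set apart. Levels are given as UMIs per 1000000 UMIs (CPM). Red blood cell markers summed to 684 CPM in the progenitors against 1.51 to 5.82 in the other groups. Endothelial markers reached 261 in the amacrine or horizontal group, with *Cdh5* at 0, and lens, pigment epithelium and periocular mesenchyme markers stayed at or under 20.4 everywhere. Microglial markers were at 27.7 CPM in the GFP+ cones, where *C1qb*, *Csf1r* and *Aif1* had no UMI, against 0.625 CPM in progenitors. What these contribute to the levels below was not tested.

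Between the gates, 4 of the 6 lncRNAs were at least 2-fold lower in GFP+ cells, where 17.7% of the 15735 genes with at least 10 UMIs were. *Malat1* alone was at least 2-fold higher, against 22% of genes. Nothing is read from these counts, since the levels in the gates took part in choosing the genes. *RP24-402O2.2* had 1.19 CPM in the GFP+ and 50.8 CPM in the GFP- library, a ratio of 0.0234 (95% interval 0.0141 to 0.0366). *Snhg11* was at 1.62 and 41.7 CPM, a log2 ratio of -4.68, which was -3.03 with an upper limit of 3500 genes per cell, a limit that 516 of the 775 ganglion cells pass. *Miat* stood at 18.6 and 128.8 CPM, and *Rmst* at 6.50 and 40.4 CPM. *Malat1* stood at 54164 CPM in GFP+ cells and 19398 CPM in GFP- cells, a ratio of 2.79. *Neat1* was at 10.3 and 6.93 CPM, a ratio of 1.49 (1.23 to 1.80). As mean UMIs per cell without scaling, *Neat1* was instead lower in GFP+ cells, with a log2 ratio of -0.72 against 0.57. All intervals here cover counting error only and not the spread between animals or sorts. A library sum mixes cell groups, so fewer cells of a type and less RNA per cell cannot be told apart in it. Of the 19 *RP24-402O2.2* UMIs in the GFP+ library, 17 lay in the 124 cells not assigned to the cone group, as did 87 of 297 *Miat* UMIs. Among these 124 were 8 cells that met 2 or more of the cone, ganglion and amacrine or horizontal rules. Those 8 held 10 *RP24-402O2.2* and 13 *Miat* UMIs.

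**Figure D1:**
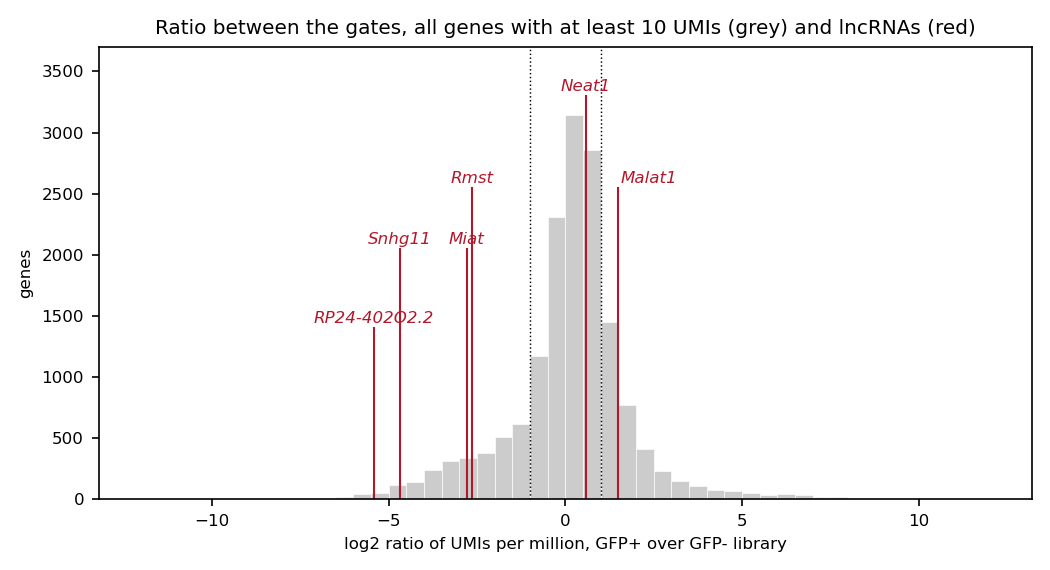
Number of genes (vertical axis) by log2 ratio of CPM between the GFP+ and the GFP- library (horizontal axis, grey bars 0.5 wide, genes with at least 10 UMIs, 0 taken as 0.5), with the 6 lncRNAs as red lines and 2-fold as dotted lines. *RP24-402O2.2* (-5.42), *Snhg11* (-4.68), *Miat* (-2.80) and *Rmst* (-2.64) lie on the GFP- side, *Neat1* (0.57) within 2-fold and *Malat1* (1.48) on the GFP+ side.

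*Miat* was lowest in GFP+ cones and highest in the ganglion precursors. Its level was 13.8 CPM (12.0 to 15.8) in GFP+ cones, 48.1 (45.3 to 50.9) in progenitors and 87.3 (58.9 to 125) in the 62 GFP- cones. Ganglion cells had 174 CPM (167 to 182), amacrine or horizontal cells 205 (187 to 224), *Olig2* neurogenic cells 219 (200 to 240), *Atoh7* neurogenic cells 279 (261 to 298) and ganglion precursors 456 (426 to 489). The intervals of neighbours in this order were apart except between the *Olig2* neurogenic and the amacrine or horizontal groups. From GFP+ cones to ganglion precursors the span was 33.0-fold. Within the GFP- library, cones had 1.82-fold the *Miat* level of progenitors (1.22 to 2.61). A *Miat* UMI was found in 99.4% of ganglion precursors, 84.1% of *Atoh7* neurogenic cells, 34.5% of progenitors and 5.19% of GFP+ cones. After thinning of each cell to 3000 UMIs these shares were 78.2% (71.3 to 84.1), 54.9%, 13.7% and 3.29% (2.71 to 3.96), in the same order. The GFP- cones, which are the same class by rule, had 6.32-fold the *Miat* level of GFP+ cones (the ratio of GFP+ to GFP- cones was 0.158, 0.108 to 0.241). They also had progenitor markers at 567 CPM against 119, neurogenic markers at 215 against 92.9 and ganglion markers at 128 against 46.1, and the part of these in the difference was not tested.

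**Figure D2:**
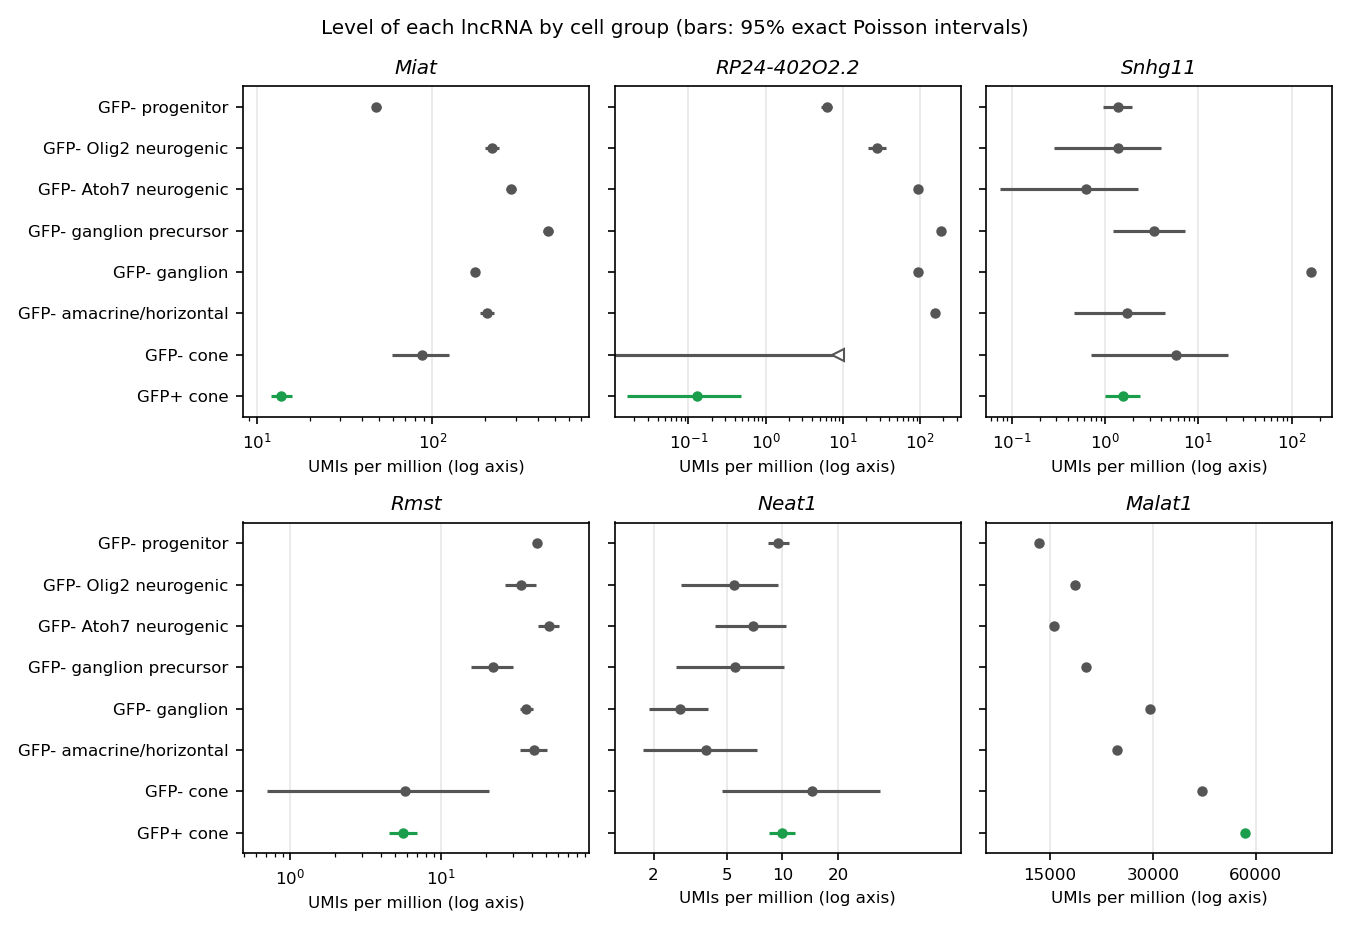
CPM (horizontal axes, log scale, 1 panel per lncRNA) in 8 cell groups, GFP- in grey and GFP+ in green, with 95% exact Poisson intervals as bars and an open triangle at the level of 3 UMIs where no UMI was found. *Miat* and *RP24-402O2.2* are highest in ganglion precursors, *Snhg11* in ganglion cells and *Malat1* in cones. For *RP24-402O2.2* the intervals of ganglion precursors and of amacrine or horizontal cells overlap. Between the GFP- groups other than cones, *Rmst*, *Neat1* and *Malat1* differ less than *Miat*, *RP24-402O2.2* and *Snhg11* do.

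*RP24-402O2.2*, like *Miat*, had its highest level in ganglion precursors, though not apart from amacrine or horizontal cells. It was close to absent in cones. It had 2 UMIs in 3604 GFP+ cones (0.132 CPM, 0.0159 to 0.475) and 0 UMIs in 62 GFP- cones. In the latter 3 UMIs would be 8.73 CPM, and the 95% interval reached 10.7 CPM. Progenitors had 6.17 CPM (5.22 to 7.25) and *Olig2* neurogenic cells 27.7 (21.2 to 35.6). *Atoh7* neurogenic and ganglion cells did not differ beyond their intervals, at 93.1 (82.8 to 104) and 94.9 CPM (89.3 to 101). Amacrine or horizontal cells had 155 CPM (140 to 172) and ganglion precursors 188 (168 to 209), again with overlapping intervals. At 3000 UMIs per cell, a UMI was found in 32.2% (25.3 to 39.7) of ganglion precursors, 29.1% of amacrine or horizontal cells, 20.5% of ganglion cells and 1.85% of progenitors, against 0.0305% of GFP+ cones. Within the GFP- library, 0 of the 58 cones deep enough for thinning had a UMI. The level of free RNA was not estimated in either library. The UMIs were uneven between cells of a group: the 18 ganglion precursors with the most held 45.9% of that group's UMIs, and the highest cell had 26.

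**Figure D3:**
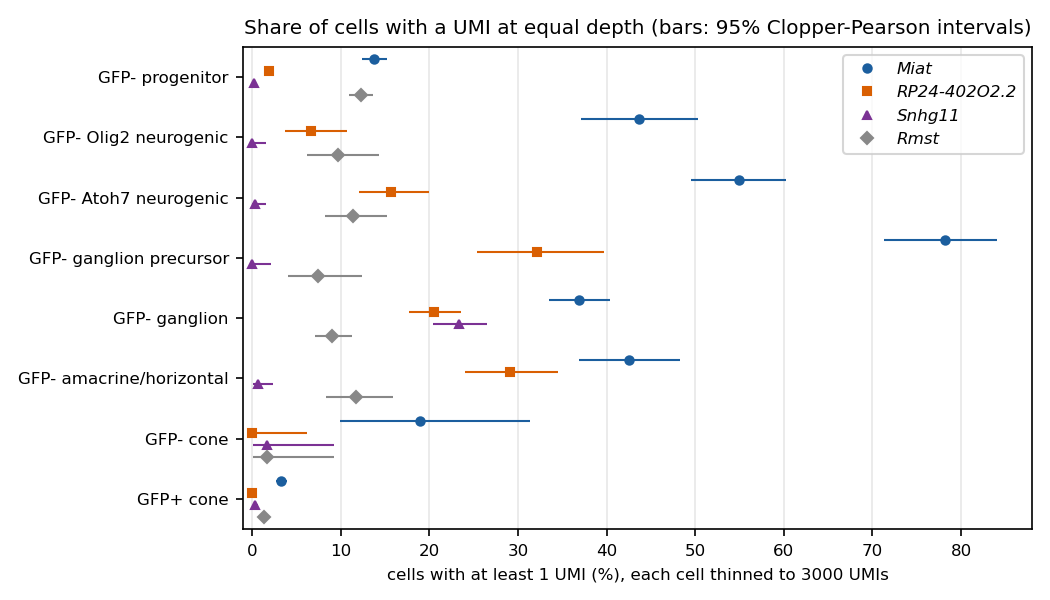
Share of cells with at least 1 UMI (horizontal axis, percent) after each cell was thinned to 3000 UMIs, for 4 lncRNAs in 8 cell groups, with 95% exact Clopper-Pearson intervals. *Miat* reaches 78.2% and *RP24-402O2.2* 32.2% in ganglion precursors. *Snhg11* reaches 23.4% in ganglion cells and at most 1.72% in the other groups shown. *Rmst* stays between 7.47% and 12.3% in all GFP- groups shown but the cones.

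*Miat* and *RP24-402O2.2* both had their highest level in ganglion precursors, where the *RP24-402O2.2* interval overlapped that of amacrine or horizontal cells. Their promoters (250 bases before to 50 after the RefSeq start, GRCm38.p6) are set side by side, with E-boxes in capitals. An E-box is a 6-base site of the pattern CANNTG, which matches on one strand wherever it matches on the other, and is bound by basic helix-loop-helix factors such as ATOH7 and OLIG2. The *RP24-402O2.2* window, at chr11:88230708-88231007 on the plus strand, held 4, and 6.49% of all 32851 promoters held as many or more. The *Miat* window, at chr5:112228899-112229198 on the minus strand, held none, whereas 72.3% of promoters held at least 1. The GC content was 48.7% and 64.3%. The RefSeq start of *RP24-402O2.2* lies 22410 bases upstream of the GENCODE gene start, and which start is used in the retina was not tested. That of *Miat* lies 447 bases downstream of the GENCODE gene start, so its whole window falls inside the annotated gene. No base upstream of that start was examined for *Miat*. The *Snhg11* promoter held 2 E-boxes and that of *Malat1* 1, and the table had no entry for the other members.
RP24-402O2.2 promoter: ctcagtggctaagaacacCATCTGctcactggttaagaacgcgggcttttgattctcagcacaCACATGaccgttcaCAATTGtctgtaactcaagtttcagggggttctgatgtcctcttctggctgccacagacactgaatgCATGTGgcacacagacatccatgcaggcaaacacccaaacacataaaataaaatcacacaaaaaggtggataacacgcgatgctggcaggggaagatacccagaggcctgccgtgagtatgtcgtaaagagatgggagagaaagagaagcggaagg
Miat promoter: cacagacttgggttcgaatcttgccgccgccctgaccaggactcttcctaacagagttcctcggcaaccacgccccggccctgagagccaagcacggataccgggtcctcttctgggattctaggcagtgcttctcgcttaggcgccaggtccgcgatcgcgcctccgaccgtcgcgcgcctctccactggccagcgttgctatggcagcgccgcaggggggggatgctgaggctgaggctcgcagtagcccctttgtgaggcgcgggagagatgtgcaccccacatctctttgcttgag

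Of the described cell groups, ganglion cells had the most *Snhg11*. Of its 1950 UMIs in the GFP- library, 92.1% lay in the ganglion group, which held 17.4% of the cells. The level was 161 CPM (154 to 169) there, against 3.31 (1.22 to 7.21) in ganglion precursors and 1.38 (0.947 to 1.93) in progenitors. In GFP+ cones it was 1.58 CPM (1.01 to 2.35), and the intervals of all groups other than the ganglion cells overlapped with those of their neighbours in the order. The ganglion level was 117-fold that of progenitors (83.1 to 171), and 48.6-fold that of precursors (22.3 to 133). Even so, only 37.4% of ganglion cells had a UMI, or 23.4% (20.4 to 26.5) at 3000 UMIs per cell. That share was 0.172% in progenitors and 0.365% in GFP+ cones. The 152 GFP- cells set apart, 134 of them by the ganglion and the amacrine or horizontal rules, had 79.8 CPM (65.2 to 96.7). At 3000 UMIs per cell, 7.24% of these 152 cells had an *Snhg11* UMI. Within the ganglion group the 78 cells with the most *Snhg11* held 60.9% of its UMIs, with up to 32 in 1 cell. The 78 with the most *Miat* held 30.6% of *Miat*.

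Within the ganglion group *Snhg11*, *Miat* and *RP24-402O2.2* differed with the amount of ganglion markers, in strata chosen after the values were seen. Cells were split by their UMIs over *Pou4f1*, *Rbpms*, *Sncg*, *Nefm* and *Nefl*, of which the last pair encode neurofilaments. *Snhg11* had 2.16 CPM (0.0547 to 12.0) at 4 to 7 marker UMIs (37 cells), 5.44 (0.659 to 19.6) at 8 to 15 (31 cells), 29.6 (18.3 to 45.2) at 16 to 31 (60 cells) and 185 (176 to 193) at 32 or more (647 cells). The first 2 of these levels rest on 1 and 2 UMIs. At 16 to 31 the 21 UMIs lay in 6.67% of the cells, against 43.7% with a UMI at 32 or more. The intervals take UMIs as independent, so they are too narrow where few cells hold them. *Miat* was highest in the middle strata, with 264 CPM (219 to 315), 364 (305 to 432), 364 (321 to 412) and 149 (141 to 157) in the same order. *RP24-402O2.2* had 60.5 CPM (40.2 to 87.4), 179 (139 to 228), 183 (153 to 217) and 86.8 (81.0 to 92.9), so that its first and last strata overlapped and the middle pair lay above both. Median depth in these strata was 11500 to 14275 UMIs per cell. Cells were also split by *Atoh7*, the factor that starts ganglion cell fate. Ganglion cells with 2 or more *Atoh7* UMIs (107) had 317 CPM of *Miat*, 152 of *RP24-402O2.2* and 36.9 of *Snhg11*. Those with none (530 cells) had 129, 70.2 and 211 CPM. *Rmst* was at 33.1 and 37.3 CPM in the same cells, with overlapping intervals (24.7 to 43.4 and 33.1 to 41.9). *Malat1* differed little, at 26849 and 30090 CPM.

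**Figure D4:**
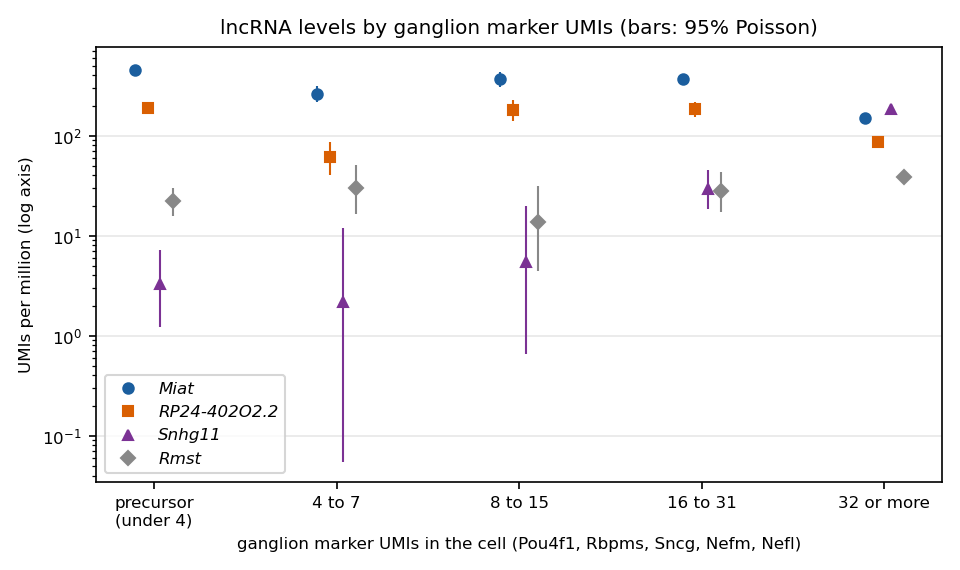
CPM (vertical axis, log scale) of 4 lncRNAs in ganglion precursors and in ganglion cells split by their summed UMIs of 5 ganglion markers (horizontal axis), all GFP-, with 95% exact Poisson intervals. *Snhg11* stands at 2.16 at 4 to 7 marker UMIs and at 185 at 32 or more, while *Miat* and *RP24-402O2.2* are lower in the last stratum than in the one before it.

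Against progenitors of the same library, the counts of members past 2-fold were as follows, and the share of all genes tested stands beside each. Ganglion cells had 4 of 6 higher (*Miat*, *Snhg11*, *Malat1* and *RP24-402O2.2*), as were 19.7% of genes, and 1 lower (*Neat1*), as were 22.3%. *Malat1*, with a log2 ratio of 1.07, was under 2-fold when *Malat1*, mitochondrial and ribosomal genes were left out of the total (0.83) and with lower marker thresholds (0.85), which leaves 3 of 6. *Neat1* was just under 2-fold lower with lower marker thresholds (-0.99). In ganglion precursors 3 were higher (*Miat*, *Snhg11* and *RP24-402O2.2*) against 12.4% of genes and 0 lower against 21.6%. The *Snhg11* ratio there rests on 6 UMIs, at 2.41 (0.825 to 5.82), and thinned precursors had no *Snhg11* UMI. Both neurogenic groups had *Miat* and *RP24-402O2.2* higher, 2 of 6, against 7.49% of genes in *Olig2* cells and 7.05% in *Atoh7* cells. Lower were 0 members in *Olig2* cells (17.3% of genes) and 1, *Snhg11*, in *Atoh7* cells (13.3%), the latter on 2 UMIs with a ratio interval of 0.0530 to 1.78. Amacrine or horizontal cells also had *Miat* and *RP24-402O2.2* higher (16.1% of genes) and *Neat1* lower (19%). For GFP+ cones against progenitors, across the 2 libraries, 1 member, *Malat1*, was higher (29.2% of genes), and *Miat*, *Rmst* and *RP24-402O2.2* were lower (16.2%). As the genes were selected on these levels, nothing is read from the counts.

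*Rmst* varied less than *Miat* over the GFP- groups and was low in cones. It stood at 43.4 CPM (40.8 to 46.1) in progenitors, 51.7 (44.1 to 60.2) in *Atoh7* neurogenic cells, 41.4 (33.6 to 50.6) in amacrine or horizontal cells and 36.9 (33.4 to 40.7) in ganglion cells. *Olig2* neurogenic cells had 34.1 CPM (26.8 to 42.7) and ganglion precursors 22.1 (15.8 to 30.1). GFP+ cones had 5.66 CPM (4.53 to 6.99) and the 62 GFP- cones 5.82 on 2 UMIs (0.704 to 21.0). Each interval overlapped with that of the next group in the order, so the ranks among neighbours are not settled by these counts. The ratio of GFP+ cones to progenitors was 0.130 (0.103 to 0.163). Ganglion precursors had 0.509 of the progenitor level (0.362 to 0.698). *Sox2*, whose protein works with *Rmst*, had 356 CPM in progenitors, 18.0 in ganglion cells and 34.7 in GFP+ cones.

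Among GFP+ cones, *Rmst* differed with the UMIs of genes tied to stress, while stress itself was not measured. The 170 cones with 3 or more UMIs over *Slc7a3*, *Slc7a5*, *Chac1* and *Trib3*, which are targets of the stress factor ATF4, had 29.1 CPM of *Rmst* (18.3 to 44.1). The 3105 cones with none had 3.85 (2.86 to 5.08), a ratio of 7.56 (4.36 to 12.7) on 22 and 50 UMIs. A UMI was found in 10.6% of the first and 1.51% of the second. *Miat*, *Neat1* and *Snhg11* had 6, 4 and 0 UMIs in the same 170 cones, too few to place them. *Malat1* was at 62032 and 55435 CPM, a ratio of 1.12 (1.11 to 1.13). *Miat* differed with *Fabp7*, which encodes a fatty acid binding protein. The 791 cones with 2 or more *Fabp7* UMIs had 23.8 CPM of *Miat* (19.2 to 29.2) and the 2129 with none had 8.88 (6.99 to 11.1), a ratio of 2.69 (1.96 to 3.69). *Rmst*, *Snhg11* and *Neat1* had ratios of 1.13 (0.660 to 1.89), 0.999 (0.312 to 2.82) and 1.14 (0.763 to 1.67) in that split. Cones with the blue opsin gene *Opn1sw* (155 cells) had 4 *Miat* UMIs, and their ratio to the others of 0.434 (0.117 to 1.13) leaves the sign unsettled.

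In the cell cycle, progenitors with 6 or more UMIs of mitotic genes (884 cells, G2/M) had less *Miat* and *RP24-402O2.2* than those with 2 or fewer (1128 cells, G1/S). *Miat* had 33.9 CPM (30.5 to 37.6) in G2/M and 63.1 (58.3 to 68.2) in G1/S. *RP24-402O2.2* had 3.56 (2.52 to 4.88) and 9.09 CPM (7.32 to 11.1). *Rmst* was the same in both, at 44.1 and 43.8 CPM, a ratio of 1.01 (0.882 to 1.15), and *Neat1* had 9.36 and 9.78 CPM (ratio 0.958, 0.718 to 1.28). *Malat1* was 1.24-fold higher in G2/M.

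*Neat1* UMIs were sparse in every group, with 489 in all (165 and 324). Its longest transcript is known to lack a poly(A) tail, so these counts need not follow the level of that transcript. Which *Neat1* transcript was counted was not tested, and the amount of paraspeckle scaffold was not measured. GFP+ cones had 10.0 CPM (8.47 to 11.7), progenitors 9.51 (8.31 to 10.8) and GFP- cones 5 UMIs (4.72 to 33.9 CPM). The neurogenic and precursor groups lay between 5.45 and 6.89 CPM, amacrine or horizontal cells at 3.84 (1.76 to 7.30) and ganglion cells at 2.78 (1.89 to 3.95). Neighbours in the order of level overlapped. The ratio of ganglion cells, the lowest group, to progenitors was 0.293 (0.194 to 0.428). Of 12 genes for paraspeckle proteins, such as *Nono* and *Sfpq*, which encode core members, 0 were at least 2-fold higher and 0 lower in ganglion cells, where 19.7% and 22.3% of all genes were. Their median log2 ratio was -0.39 against -0.08 for all genes. *Nono* had 328 CPM in ganglion cells and 373 in progenitors. No paraspeckle gene passed 2-fold between the gates, where 22% of genes were higher and 17.7% lower, with a median log2 ratio of 0.03 against 0.27 for all genes.

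*Malat1* had its largest share of a cell's UMIs in cones. The median cone of the GFP+ library had 5.53% of its UMIs from *Malat1* (5th to 95th percentile 2.87 to 9.13%), and the median GFP- cone 4.52% (1.83 to 7.36%). Ganglion cells had a median of 2.87%, amacrine or horizontal cells 2.25%, ganglion precursors 1.81%, *Olig2* neurogenic cells 1.66%, *Atoh7* neurogenic cells 1.39% and progenitors 1.30% (0.501 to 2.65%). As summed levels, GFP+ cones had 55649 CPM (55531 to 55768), GFP- cones 41852, ganglion cells 29409 and progenitors 13980 (13933 to 14027), a span of 3.98-fold. *Malat1* was found in every GFP+ cone, and only 10 GFP- cells and 1 GFP+ cell had none.

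The groups differ in depth, so the share was also taken at matched depth. In cells of 4000 to 6000 UMIs, *Malat1* took 5.65% of the summed UMIs of GFP+ cones (1313 cells), 4.89% of GFP- cones (29 cells), 2.21% of amacrine or horizontal cells (44 cells) and 1.68% of progenitors (104 cells). At 8000 to 12000 UMIs it took 4.62% of the 69 GFP+ cones and 1.38% of the 1211 progenitors. These groups kept their order at matched depth. Counted per cell without scaling, the order changed, with 235 *Malat1* UMIs per GFP+ cone, 232 per GFP- cone, 144 per progenitor and 422 per ganglion cell. On that scale ganglion cells and not cones were highest, and the library means were 233 for GFP+ and 204 for GFP- cells. The larger share in cones came with a smaller total, a median of 3887 UMIs in GFP+ cones against 9864.5 in progenitors. Whether a cone holds less RNA, or fewer of its molecules were caught, cannot be told apart.

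**Figure D5:**
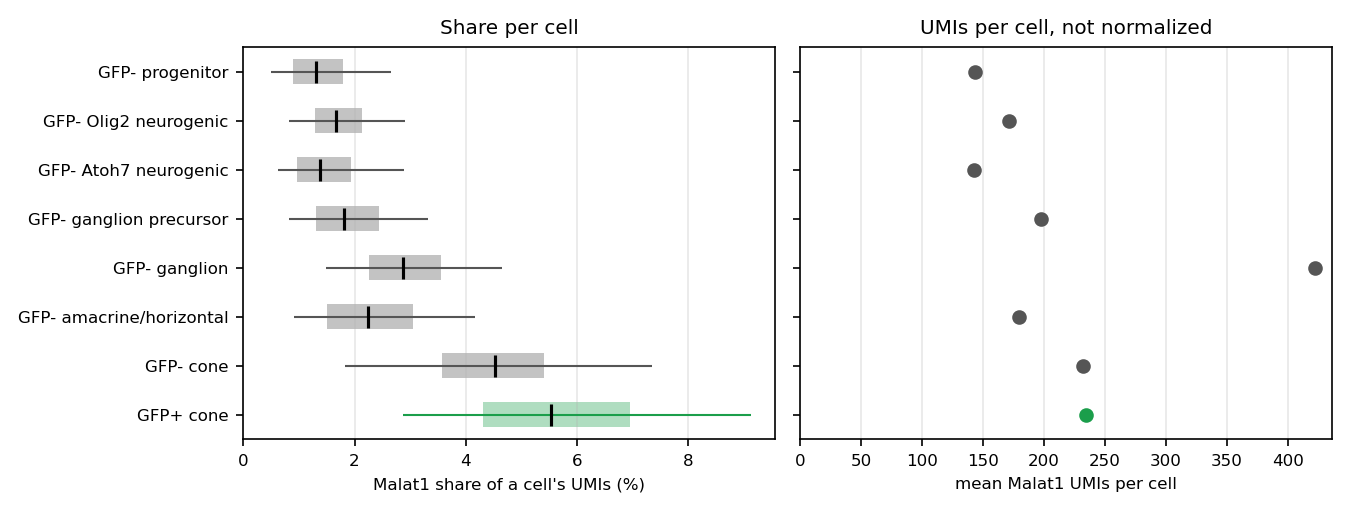
Left, share of a cell's UMIs from *Malat1* (percent) in 8 cell groups, with the median as a black tick, the middle 50% of cells as a box and the 5th to 95th percentile as a line. Right, mean *Malat1* UMIs per cell without scaling. Cones lead on the left (medians 5.53% and 4.52%) and ganglion cells on the right (422 UMIs per cell).

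Genes tied to these RNAs in the cell moved in their own ways. Of 10 speckle genes, *Son*, which encodes a core speckle protein, was higher in GFP+ cones than in progenitors (1253 and 433 CPM), and *Srsf3*, a splicing factor, was lower (400 and 940 CPM), while 8 were within 2-fold. Of all genes 29.2% were higher and 16.2% lower in that comparison. Of 4 genes for proteins reported to bind *Miat*, *Celf3* was at least 2-fold higher than in progenitors in each of the 6 groups compared, with 387 CPM in GFP+ cones, 154 in ganglion precursors and 3.54 in progenitors. *Qk* was lower in ganglion precursors (24.9 CPM), ganglion cells (19.6) and GFP+ cones (21.2) than in progenitors (67.1). *Sf1*, the branch-point binding protein, stayed within 2-fold, between 70.1 and 169 CPM. Of the 8 groups, GFP+ cones were lowest in *Miat* and highest in *Celf3*. *Six3* and *Sox2*, the genes that *Six3os1* and *Sox2ot* overlap, had 357 and 356 CPM in progenitors. In ganglion cells they stood at 535 and 18.0 CPM.

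Among 50 other lncRNAs, listed with earlier results of these data known, 29 had a single row and 25 could be compared between GFP+ cones and progenitors. There 8 were at least 2-fold higher and 7 lower, where 29.2% and 16.2% of all genes were. Their median log2 ratio was 0.65 against 0.40 for all genes. *Meg3*, an imprinted lncRNA, had 2944 CPM in GFP+ cones and 55.5 in progenitors, and *Mir124a-1hg*, a host of the neuronal miR-124, had 163 and 2.83. *Otx2os1*, antisense to the photoreceptor gene *Otx2*, had 23.6 CPM in GFP+ cones and no UMI in progenitors, so that it was at least 188-fold higher. *Lockd*, beside a cell cycle inhibitor gene, went the other way, at 9.41 and 133 CPM, as did *H19*, at 0.855 and 46.3 CPM. In ganglion cells against progenitors 4 of 22 were higher and 8 lower, where 19.7% and 22.3% of all genes were. *Mir124a-1hg* was past 2-fold above progenitors in every group compared.

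Over the 8 groups, the genes whose levels ran most alike to each lncRNA were found by Pearson's r of log2(CPM + 10), among 4614 genes with at least 50 CPM in a group. The points share 2 libraries and their depths, so r is a description. Closest to *Miat* were *Chchd2* (0.972), *Tle4* (0.958) and *Ppp1r14b* (0.957). For *RP24-402O2.2* they were *Manbal* (0.987), *Shb* (0.979) and *Rcn2* (0.977), and among the closest to *Snhg11* were *Rgs10* (0.990) and *Syt13* (0.988). *Rmst* ran most like *Ndufaf2* (0.956), *Ubap2* (0.952) and *Nhs* (0.945), and *Malat1* most like *Alg2* (0.997), *Apbb1* (0.993) and *Lurap1l* (0.989). *Neat1* stayed under 50 CPM in all groups and was left out.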

How the data were processed

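Per the labels, RNA of sorted E14.5 retinal cells was captured with the 10X Chromium 3′ v2 kit. The authors deposited UMI counts per gene and cell from Cell Ranger 2.1.1 (mm10, GRCm38), raw whole numbers without scaling. The deposited barcode and gene lists name the cells and rows. Gene rows were matched by symbol. The 8 members, the gene lists and the marker rules were chosen with earlier results of these data known.

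Cells with at least 250 genes and a mitochondrial share under 0.25 were kept, with no upper gene limit. Marker rules set the groups, and groups under 50 cells were not described. Scrublet (scanpy 1.11.5, expected rate 0.03) called 3 GFP+ and 55 GFP- cells doublets, which were left in. Summed UMIs of each group were scaled to 1000000, with 95% exact Poisson intervals. Shares have exact Clopper-Pearson intervals, also after thinning to 3000 UMIs, which left out 344 GFP+ and 20 GFP- cells, and ratios have exact binomial intervals. A gene at 0 is bounded by 3 UMIs. With 1 library per gate no test was possible. Genes with at least 10 UMIs over both groups were compared, and 2-fold was the threshold. Named genes were the members, their partner genes, and list members past 2-fold. Intervals were checked on simulated Poisson counts of whole libraries. That check cannot cover the uneven spread of UMIs between cells, which the simulation leaves out. Positions and transcripts came from GENCODE M21, promoters from RefSeq (GRCm38.p6), where 4 of the 6 members matched. Python 3.11.15, numpy 2.4.6, pandas 2.3.3, scipy 1.17.1, matplotlib 3.10.9, R 4.3.3 and edgeR 4.0.16 (TMM factors, an alternative) were used. Alternatives covered scaling, cell filters, doublets, thinning, folds and marker thresholds. One gene with a pattern like a member's is not reported here.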

Additional observations from a re-analysis of the deposited data

How the results depend on the processing

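No paired analysis was possible because each gate had 1 library. Of 224 alternative values for the 25 member ratios past 2-fold, 222 kept their sign and 215 stayed past 2-fold. Both reversals were *Snhg11* in *Atoh7* neurogenic cells over progenitors, which rests on 2 UMIs: log2 0.76 in thinned cells and 0.12 with lower marker thresholds. Of 154 counts of members, 134 kept within 1.5 times.

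Mean UMIs per cell moved the median of all genes by -1.29 on the log2 scale in both GFP+ comparisons, TMM factors by -0.26 between the libraries. With mean UMIs per cell 0 members were higher in GFP+ cells and in GFP+ cones (*Malat1* log2 0.19 and 0.71), and 5 were lower in GFP+ cones. *Neat1*, within 2-fold in both main comparisons, changed sign on that scale. Its log2 ratio went from 0.57 to -0.72 between the libraries, and from 0.07 to -1.21 in GFP+ cones over progenitors. Thinning gave 2 higher in GFP+ cones (*Snhg11* added), 1 lower in *Olig2* cells (*Neat1*) and 0 lower in *Atoh7* cells. In ganglion precursors 1 member was lower (*Rmst*) with TMM factors, means of per-cell values, a total without *Malat1*, mitochondrial and ribosomal genes, an upper limit of 3500 genes, or doublets left out. A fold of 1.5 gave 1 lower in *Olig2* cells and 2 lower in ganglion precursors. A fold of 3 gave 0 higher in the GFP+ library, 0 lower in *Atoh7* cells and 0 lower in amacrine or horizontal cells. Raised marker thresholds gave 0 lower in *Atoh7* cells, and lowered ones 0 lower in *Atoh7*, ganglion and amacrine or horizontal cells. The cause was not tested. Depth limits *Neat1* in all groups, *Snhg11* outside ganglion cells, and the members other than *Malat1* in the 62 GFP- cones.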
